A study of Mus musculus with 24 samples.

Results

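Type I interferon response genes were followed in mouse liver that lacked the transcription factor FoxO1, the nuclear receptor PPARα or both. The set was a list of 42 gene symbols (interferon-induced effectors and the factors that drive them), all of which were found among the 34945 named genes of the expression table, and 37 of them had a mean level of at least 1 TPM (a gene's transcripts as a share of all transcripts, scaled to the same total in every library) and could be tested among 10551 genes. The symbols were given as a list and not picked by a threshold on these values, but genes and lists were chosen with earlier results of these data known. The mice were of 4 genotypes. They ate regular chow (RD, regular diet) or fat-rich food (HFD, high-fat diet) over 3 weeks, were fasted for 4 h, and gave 8 groups of 3 RNA libraries. WT livers came from mice with floxed FoxO1 and PPARα alleles (FoxO1lox/lox; PPARαlox/lox) for which no Cre is stated. LFKO livers were labelled FoxO1-/-, LPKO livers PPARα-/- and LFPKO livers FoxO1-/-; PPARα-/-. Deletion used an Albumin-Cre transgene, which acts in hepatocytes from early life. Whether the other cells of the liver kept both genes was not checked here. Sex, age and strain were not stated, and the labels do not say that each replicate was a separate mouse, so p-values reflect only how far these samples spread, which may be technical.

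Type I interferons are secreted proteins that bind the receptor pair IFNAR1 and IFNAR2. The receptor activates the kinases JAK1 and TYK2, and a complex that holds STAT2 and IRF9 then binds the interferon-stimulated response element (ISRE) in the promoters of responding genes. The products detect foreign RNA and DNA, block viral translation and replication, tag proteins with the ubiquitin-like ISG15 and process antigens, and IRF7, itself a product of the response, drives further interferon production. Hepatocytes, Kupffer cells (resident macrophages) and endothelial cells of the liver can all respond.

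Foxo1 stood at 0.250 to 0.484 TPM in the 12 LFKO and LFPKO libraries and at 4.06 to 9.94 TPM in the other 12. It averaged 8.28 TPM in HFD LPKO livers (5.53 to 9.94 TPM) and 4.77 TPM in HFD WT livers (4.06 to 5.52 TPM). These ranges nearly touched (limma adjusted p = 0.0107). Ppara ranged from 57.5 to 87.3 TPM in the 12 LPKO and LFPKO libraries and from 37.1 to 68.8 TPM in the remaining 12. A TPM summed over the gene can include transcripts that lack a deleted exon, so Ppara does not check those labels, and LPKO and LFPKO below mean the libraries so labelled. Between 9749 and 10937 genes per library reached 1 TPM, depth is unknown because TPM keeps no read counts, and libraries of a group correlated across genes at 0.970 to 0.991. Genes of the Mup family (major urinary proteins) took 5.05% to 14.4% of a library's TPM on RD and 6.5% to 30.7% on HFD, which lowers the share left for every other gene.

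The promoters of the genes describe the set outside these measurements. RefSeq promoter windows (GRCm38.p6, 250 bases before to 50 after each start) were at hand for 31 of the 42 genes. The ISRE core GAAANNGAAA, searched on both strands, was present in 16 of the 31 (51.6%), against 3.99% of all 27025 genes with a window. The gamma-activated sequence TTCNNNGAA, the element of the interferon gamma response, was present in 5 (16.1%, against 9.55% of all genes) and overlapped an ISRE match in 1 window. The FoxO core GTAAACA was present in 1, Rsad2 (3.23%, against 4.05%). Of the 16 genes with a window that were higher in RD LFPKO than in RD WT livers, 9 held an ISRE match, and of the 12 that were tested and not called there, 5 did. Irf7, Ube2l6, Herc6, Oasl1, Ifi44, Xaf1 and Psmb8 were called there and held no match, and Usp18 had no window. A match is a description of letters and not a bound site. The stretches below, with ISRE matches in capitals, belong to genes whose values follow. They read 5′ to 3′ along the gene's strand, so a TTTC form is the same element on the other strand. Isg15 lies at chr4:156200850-156200909 on the minus strand, Ifit1 at chr19:34640779-34640838 on the plus strand, Ifit3 at chr19:34583382-34583441 (plus), Rsad2 at chr12:26456538-26456597 (minus), Oas1a at chr5:120907526-120907564 (minus) and Bst2 at chr8:71537562-71537621 (minus).
Isg15: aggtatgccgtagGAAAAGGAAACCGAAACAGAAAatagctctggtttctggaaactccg
Ifit1: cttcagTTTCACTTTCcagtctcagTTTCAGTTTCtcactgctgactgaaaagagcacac
Ifit3: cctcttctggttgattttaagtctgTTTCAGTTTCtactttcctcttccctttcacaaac
Rsad2: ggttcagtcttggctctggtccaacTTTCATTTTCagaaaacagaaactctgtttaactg
Oas1a: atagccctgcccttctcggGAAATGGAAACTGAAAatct
Bst2: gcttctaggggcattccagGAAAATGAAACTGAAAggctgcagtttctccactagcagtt
The Isg15, Oas1a and Bst2 stretches carry overlapping matches that run on without a gap, and Ifit1 carries separate matches. The same 60 bases printed for Ifit3 stand before Ifit3b at chr19:34607778-34607837. Some members are also alike in their transcripts: 61.8% of the distinct 31-base words of Ifit3 occur in Ifit3b, 68.7% of those of Oas1a in Oas1g and 64.9% of those of Apol9b in Apol9a (GENCODE M21), so the division of reads within each pair is uncertain.

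Levels differed widely within the set. Over all 24 libraries Bst2 (tetherin, which holds budding virus at the cell surface) averaged 104 TPM, Apol9b 73.8 TPM and Ifi27, a mitochondrial protein gene, 68.9 TPM. The 5 genes under the limit of 1 TPM were Ifit2 (0.95 TPM), Oas1g (0.71 TPM), Oas2 (0.44 TPM), Mx1 (0.43 TPM) and Oas3 (0.19 TPM), and these were not tested.

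On the regular diet, livers labelled LPKO and LFPKO had higher interferon response genes than WT livers, and none of the tested genes was called lower. Called means a limma adjusted p (Benjamini-Hochberg over 10551 genes) under 0.05, and changes are log2 fold changes (log2FC) ± SE on log2(TPM + 1), which understates the change of low genes. Among LPKO livers the test called 17 of 37 higher and 0 lower, where 3.52% of all tested genes were called higher and 2.33% lower. For LFPKO livers it called 21 of 37 higher and 0 lower, against 4% and 3.45% of all genes. LFKO livers had 3 higher (Isg15, Zbp1 and Ube2l6) and 0 lower, against 1.07% and 0.597%. The median log2FC of the 37 genes was 0.31 in LFKO, 0.51 in LPKO and 0.68 in LFPKO livers, beside 0.03, 0.04 and 0.01 over all tested genes. The 3 comparisons share the RD WT libraries and are not independent. Within RD WT, replicate 1 was below the group mean for most of the set (4 of 37 genes above it) and replicate 2 above it (33 of 37), and in RD LPKO replicate 1 was high (36 of 37). Without RD WT replicate 1 the LPKO count fell to 8 and without RD LPKO replicate 1 to 9, while the LFPKO count stayed between 17 and 20 with any library of its 2 groups left out. The LFKO count was 1 without RD WT replicate 1, RD WT replicate 3 or RD LFKO replicate 2, and 0 without RD LFKO replicate 3.

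**Figure D1:**
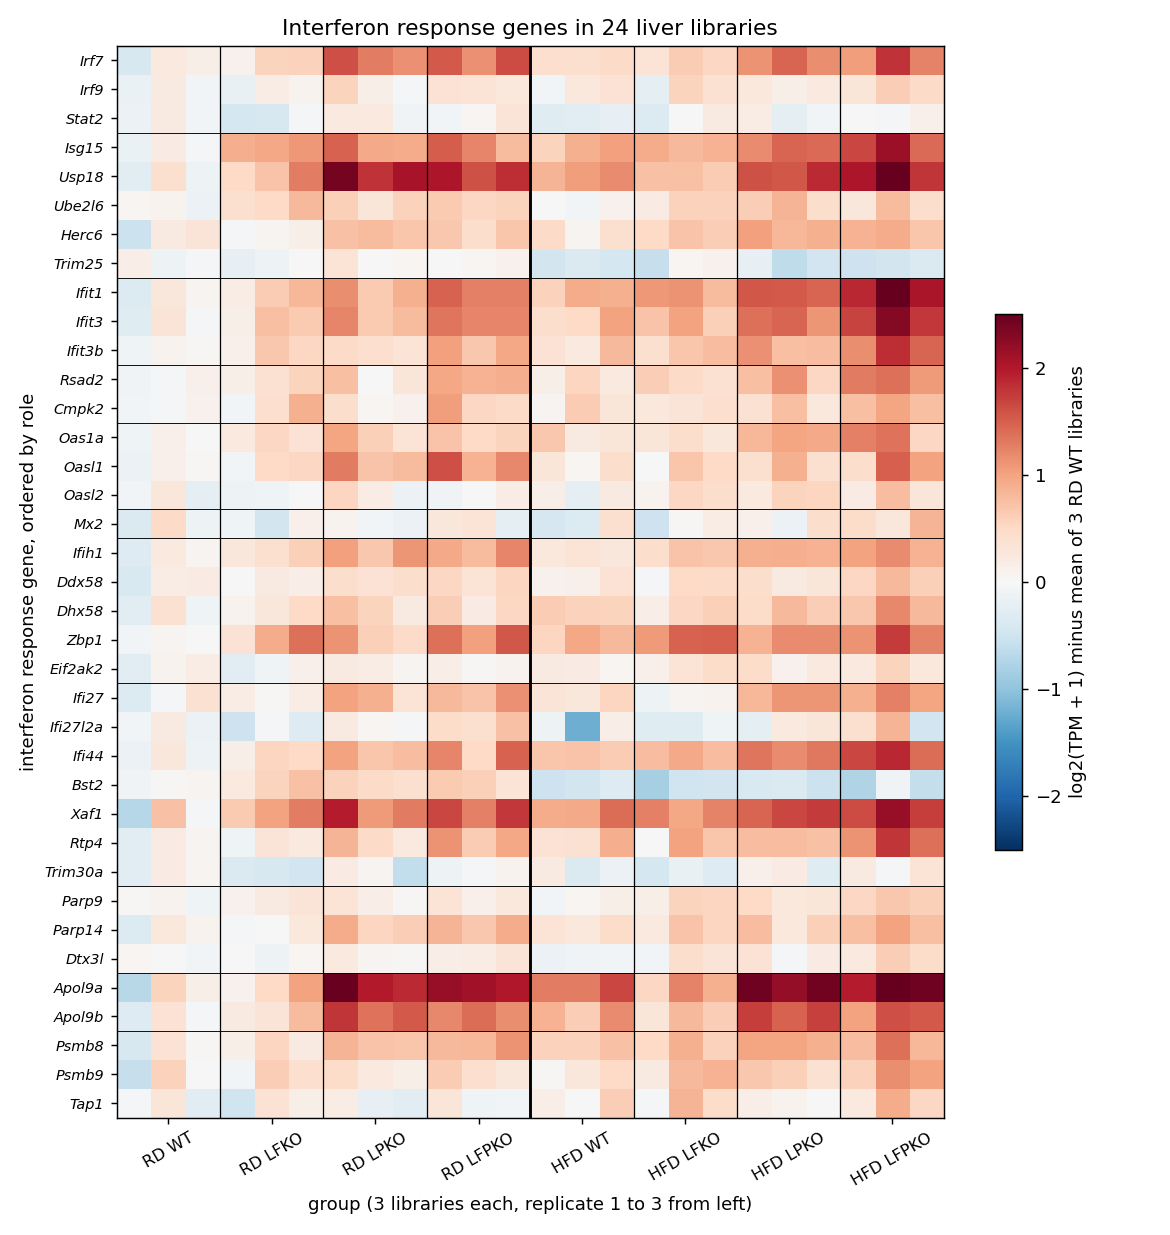
Each row is 1 of the 37 tested interferon response genes and each column 1 of 24 libraries, in 8 groups of 3; colour gives log2(TPM + 1) minus the mean of the 3 RD WT libraries. For Irf7, Usp18 and Apol9a the 12 LPKO and LFPKO columns are all higher than the other 12, and Bst2 is lower on HFD than on RD in each genotype.

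Of the transcription factors, only Irf7 was called in these comparisons. Irf7 (chromosome 7, 141262706 to 141266481, minus strand, GRCm38) read 6.29, 10.3 and 9.68 TPM in RD WT livers and overlapped RD LFKO livers, at 9.33, 13.0 and 13.3 TPM. It read 28.4, 22.1 and 20.2 TPM in RD LPKO and 26.7, 20.2 and 28.9 TPM in RD LFPKO livers, above every RD WT and RD LFKO library. The rise over WT was 1.34 ± 0.20 in LPKO (2.69-fold in mean TPM, limma adjusted p = 0.000233) and 1.44 ± 0.20 in LFPKO livers (limma adjusted p = 9.16e-05). Irf9 and Stat2, which encode parts of the ISRE-binding complex, were not called in any knockout on either diet. Irf9 stood between 9.28 and 17.5 TPM and Stat2 between 12.3 and 21.5 TPM over all 24 libraries.

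In the ISG15 system 4 of 5 genes were called higher in RD LPKO and 4 of 5 in RD LFPKO livers. Usp18 (chromosome 6, 121245906 to 121270917, plus strand), a protease that removes ISG15 and restrains signalling at IFNAR2, read 1.99, 3.83 and 2.33 TPM in RD WT livers. Its values in RD LFKO livers were 4.17, 4.98 and 7.84 TPM. In RD LPKO it read 18.2, 11.7 and 14.2 TPM and in RD LFPKO 13.8, 9.96 and 12.1 TPM. All 6 of these libraries lay above the WT and LFKO libraries, and the rise over WT was 2.09 ± 0.22 in LPKO (5.40-fold in mean TPM, limma adjusted p = 3.37e-06) and 1.82 ± 0.22 in LFPKO livers (limma adjusted p = 1.62e-05). Isg15, the modifier itself, read 4.07, 5.53 and 4.45 TPM in RD WT livers, and every RD knockout library was above these. Its rise was 0.98 ± 0.19 in LFKO (10.2 ± 0.692 TPM against 4.68 ± 0.760, SD, n = 3, limma adjusted p = 0.00853), 1.12 ± 0.19 in LPKO and 1.18 ± 0.19 in LFPKO livers. Ube2l6, the conjugating enzyme, rose in all 3 knockouts, by 0.57 ± 0.14, 0.49 ± 0.14 and 0.58 ± 0.14 in LFKO, LPKO and LFPKO. These calls were lost in 11, 8 and 3 of 13 alternative settings (limma adjusted p up to 0.242, 0.188 and 0.0832), among them the fits without RD WT replicate 3. The LFKO call was also lost without any other library of its 2 groups, the LPKO call without RD WT replicate 1 or 2 or RD LPKO replicate 1 or 3, and the LFPKO call without RD LFPKO replicate 1 or 3. Herc6, a ligase of the ISG15 pathway in mouse, rose by 0.73 ± 0.17 in LPKO and 0.61 ± 0.17 in LFPKO livers. Trim25, a ubiquitin ligase that acts on RIG-I, gave 0.14 ± 0.15 in LPKO and 0.05 ± 0.15 in LFPKO livers and was not called.

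The IFIT genes, whose proteins bind viral RNA and block its translation, were called for 2 of 3 tested members in RD LPKO and 3 of 3 in RD LFPKO livers. Ifit1 read 1.08, 2.18 and 1.76 TPM in RD WT livers. The other genotypes read 1.99, 3.10 and 3.69 TPM in RD LFKO, 4.91, 3.17 and 3.88 TPM in RD LPKO and 6.36, 5.27 and 5.28 TPM in RD LFPKO livers. The LFPKO libraries lay above all others on this diet, and the rise over WT was 0.91 ± 0.19 in LPKO and 1.33 ± 0.19 in LFPKO (limma adjusted p = 0.00502 and 0.000121). Ifit3 rose by 0.89 ± 0.21 and 1.26 ± 0.21, and Ifit3b passed in LFPKO livers (0.89 ± 0.19) and not in LPKO livers (0.42 ± 0.19). The difference between LFPKO and LPKO for Ifit3b was 0.47 ± 0.19 (limma adjusted p = 0.739).

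Rsad2 (viperin, which makes a chain-terminating nucleotide) and its neighbour Cmpk2, a nucleotide kinase gene, behaved less uniformly. Rsad2 read 1.17, 1.25 and 1.53 TPM in RD WT livers, 2.87, 1.33 and 1.86 TPM in RD LPKO and 3.50, 3.24 and 3.34 TPM in RD LFPKO livers. The LPKO libraries overlapped WT (0.35 ± 0.18, limma adjusted p = 0.289), while the LFPKO libraries lay above both (0.91 ± 0.18 over WT, limma adjusted p = 0.00222). Cmpk2 gave 0.20 ± 0.21 and 0.68 ± 0.21 and missed the threshold in both (limma adjusted p = 0.673 and 0.0512).

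Among the oligoadenylate synthetases, which make the second messenger that activates RNase L, and their relatives, Oasl1 led. It read 3.42, 4.34 and 4.01 TPM in RD WT livers, 11.1, 7.01 and 7.48 TPM in RD LPKO and 14.0, 7.96 and 10.4 TPM in RD LFPKO livers, with no overlap. The rises were 0.93 ± 0.25 and 1.23 ± 0.25 (limma adjusted p = 0.033 and 0.00407). Oas1a was called in LPKO livers (0.65 ± 0.19, from 0.472 to 0.717 TPM in WT to 1.01 to 2.13 TPM) and missed the threshold in LFPKO, and Oasl2 was not called in either. The Oas1a call was lost in 7 of 12 alternatives (limma adjusted p up to 0.254), including the fits without any RD WT library or without RD LPKO replicate 1 or 2, and the Oasl1 call in LPKO livers in 6 of 13 (up to 0.181). Mx2, annotated as a polymorphic pseudogene on the reference, ranged from 1.37 to 5.13 TPM over all libraries and was not called in any knockout.

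Of the sensors, Ifih1 (MDA5, a receptor for long double-stranded RNA) read 6.28, 9.72 and 8.56 TPM in RD WT livers, 17.6, 13.5 and 18.6 TPM in RD LPKO and 16.4, 14.8 and 20.1 TPM in RD LFPKO livers. The groups did not overlap, with rises of 0.94 ± 0.14 and 0.98 ± 0.14 (limma adjusted p = 0.000364 and 0.000175). Zbp1, a sensor of Z-form nucleic acid, rose by 0.89 ± 0.22 in RD LFKO and 1.31 ± 0.22 in RD LFPKO livers. The LFKO call was lost in 9 of 13 alternatives (limma adjusted p up to 0.25), including the fits without any RD WT library or without RD LFKO replicate 2 or 3, and the LFPKO call in 0 of 13. Its log2FC in RD LPKO livers was 0.73 ± 0.22 and was not called. Ddx58 (RIG-I), Dhx58 (LGP2) and Eif2ak2 (PKR) were not called in any knockout on this diet.

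The other interferon-induced genes were called for 3 of 7 in RD LPKO and 5 of 7 in RD LFPKO livers. Xaf1, a pro-apoptotic gene, read 1.21, 5.08 and 2.57 TPM in RD WT livers and 13.2, 6.61 and 7.95 TPM in RD LPKO and 10.6, 7.65 and 11.4 TPM in RD LFPKO livers. Both knockouts lay above WT, by 1.44 ± 0.28 and 1.56 ± 0.28 (limma adjusted p = 0.00299 and 0.00119). Ifi44 rose by 0.83 ± 0.19 and 1.07 ± 0.19 and Ifi27 by 0.75 ± 0.18 and 0.88 ± 0.18, although the Ifi27 libraries of LPKO and WT overlapped. Rtp4, a chaperone-like gene, was called in LFPKO livers (0.91 ± 0.23), as was Bst2 (0.54 ± 0.15), whose call was lost in 6 of 13 alternatives (limma adjusted p up to 0.128). Ifi27l2a gave 0.07 ± 0.29 and 0.54 ± 0.29 and Trim30a, a TRIM-family gene, -0.12 ± 0.20 and -0.03 ± 0.20 in LPKO and LFPKO, and neither passed the test.

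Apol9a, a mouse apolipoprotein L gene, stood with Usp18 at the top of the set by log2FC in RD LPKO and in RD LFPKO livers. Apol9a (chromosome 15, 77403789 to 77411135, minus strand) read 7.08, 18.0 and 13.3 TPM in RD WT livers. Values in RD LFKO livers overlapped these, at 13.0, 17.4 and 25 TPM. It read 71.5, 50.4 and 46.2 TPM in RD LPKO and 57.9, 54.7 and 51.0 TPM in RD LFPKO livers, above all WT and LFKO libraries. The rises over WT were 2.11 ± 0.27 (4.37-fold in mean TPM, limma adjusted p = 5.39e-05) and 2.09 ± 0.27 (limma adjusted p = 4e-05), and those of Apol9b were 1.56 ± 0.20 and 1.25 ± 0.20. Parp14, an ADP-ribosyltransferase gene, rose from 2.53, 4.43 and 3.77 TPM in RD WT livers to 7.57, 5.56 and 5.89 TPM in RD LPKO and 7.06, 6.14 and 7.53 TPM in RD LFPKO livers (0.69 ± 0.17 and 0.81 ± 0.17). Parp9 and Dtx3l, which form a complex of an ADP-ribosyltransferase and a ubiquitin ligase, were not called on this diet. Psmb8, a subunit of the immunoproteasome, read 9.61, 17.1 and 13.4 TPM in RD WT livers, 24.3, 22.0 and 21.6 TPM in RD LPKO and 23.6, 24 and 29.7 TPM in RD LFPKO livers (0.75 ± 0.17 and 0.92 ± 0.17). Its partner subunit gene Psmb9 and the peptide transporter gene Tap1 were not called on either diet.

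**Figure D2:**
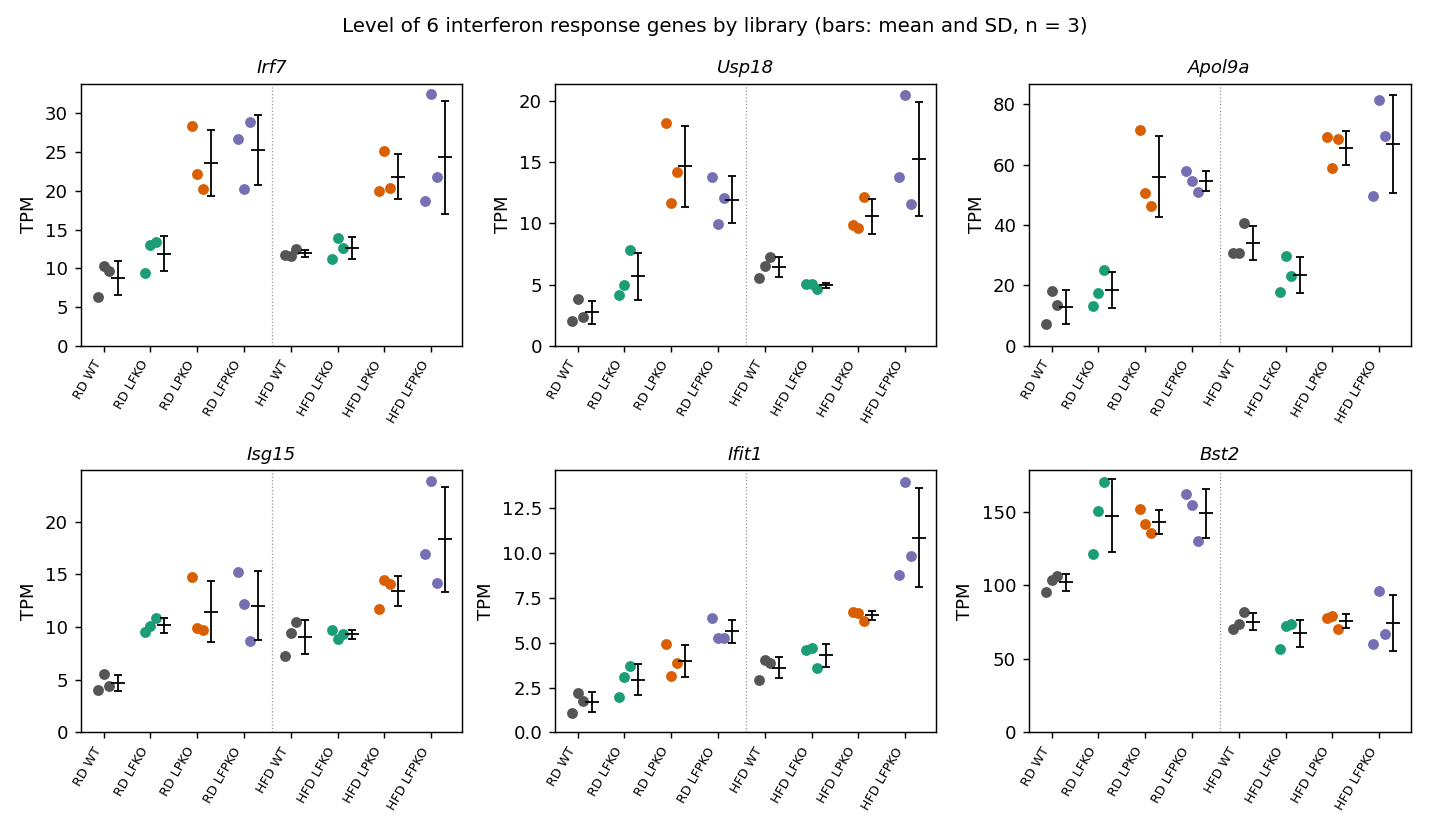
TPM (vertical axis, from 0) of Irf7, Usp18, Apol9a, Isg15, Ifit1 and Bst2 in the 8 groups; points are libraries and bars the mean and SD of 3. For Irf7, Usp18 and Apol9a the 12 libraries labelled LPKO or LFPKO lie above the other 12, and the highest Bst2 library on the high-fat diet is at 96.1 TPM.

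On the high-fat diet the LFPKO livers again had the most genes called higher. In LFPKO livers 13 of 37 were higher and 0 lower than in HFD WT livers, against 1.62% and 1.47% of all tested genes. In LPKO livers 7 of 37 were higher and 0 lower, against 3.6% and 1.13%. In LFKO livers Parp9 was the 1 gene called higher and 0 were lower, against 12.7% and 0.73% of all genes. The medians were 0.13, 0.33 and 0.60 in LFKO, LPKO and LFPKO livers, beside 0.21, 0.11 and 0.07 over all genes. In HFD LFKO against HFD WT livers the median of the set lay below that of all genes. Division by median-of-ratios size factors moved the medians of the set to -0.08, 0.20 and 0.53 and those of all genes to -0.01, -0.01 and -0.01, so that the LFKO median changed sign. The HFD LFKO comparison then gave 0 higher and 1 lower, Ifi27 (-0.63, limma adjusted p = 0.034). Over all tested genes the split of higher and lower calls in HFD LFKO, LPKO and LFPKO livers was 1343 and 77, 380 and 119, and 171 and 155 as deposited, and 235 and 197, 373 and 347, and 211 and 363 after that scaling.

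The genes called higher in HFD LPKO livers were Irf7, Ube2l6, Herc6, Ifit1, Ifih1, Ifi27 and Apol9b. Irf7 read 11.7, 11.6 and 12.4 TPM in HFD WT livers and overlapped HFD LFKO livers, at 11.1, 14.0 and 12.6 TPM. It read 19.9, 25.2 and 20.4 TPM in HFD LPKO and 18.7, 32.5 and 21.7 TPM in HFD LFPKO livers. The rise over WT was 0.81 ± 0.20 and 0.93 ± 0.20 (limma adjusted p = 0.0205 and 0.00839). Those called in HFD LFPKO livers were Irf7, Isg15, Usp18, Ifit1, Ifit3, Ifit3b, Rsad2, Ifih1, Ifi27, Ifi44, Rtp4, Parp9 and Dtx3l. Ifit1 read 2.95, 4.02 and 3.85 TPM in HFD WT, 6.70, 6.65 and 6.24 TPM in HFD LPKO and 8.75, 14.0 and 9.86 TPM in HFD LFPKO livers, 3 ranges in ascending order with no overlap. Its rise over WT was 0.72 ± 0.19 in LPKO and 1.35 ± 0.19 in LFPKO (limma adjusted p = 0.0312 and 0.000125). Apol9a was above WT in every HFD LPKO and HFD LFPKO library and missed the threshold (0.93 ± 0.27 and 0.94 ± 0.27, limma adjusted p = 0.0504 and 0.0642). In HFD LPKO livers the calls of Ifi27, Herc6, Ifit1 and Apol9b were lost in 11 of 13, 10 of 12, 9 of 12 and 8 of 13 alternatives. Those of Ifih1, Ube2l6 and Irf7 were lost in 6, 4 and 3 of 13. In HFD LFPKO livers the calls of Ifi27, Rtp4 and Dtx3l were lost in 8, 6 and 5 of 13. Those of Isg15, Parp9 and Irf7 were lost in 3, 3 and 2 of 13 and that of Ifit3b in 1 of 12. The other HFD LFPKO calls were lost in 0.

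The 3 comparisons on this diet likewise share their HFD WT libraries, and their counts moved with the library left out. The shares of all genes called in those fits are not given here. HFD LFPKO replicate 2 was above its group mean for 33 of 37 genes, and without it the LFPKO count was 7, while without HFD WT replicate 1 it was 8. The LPKO count was 0 without HFD WT replicate 2 or HFD LPKO replicate 2, 1 without HFD LPKO replicate 1, 2 without HFD WT replicate 1 and 4 without HFD WT replicate 3. The LFKO count was 5 without HFD LFKO replicate 1 and 0 without HFD WT replicate 1, HFD WT replicate 2, HFD LFKO replicate 2 or HFD LFKO replicate 3. In HFD LFKO, Parp9 read 19.9, 26.8 and 26.4 TPM and overlapped HFD WT, at 17.1, 18.7 and 20.0 TPM, and its call was lost in 9 of 13 alternatives.

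**Figure D3:**
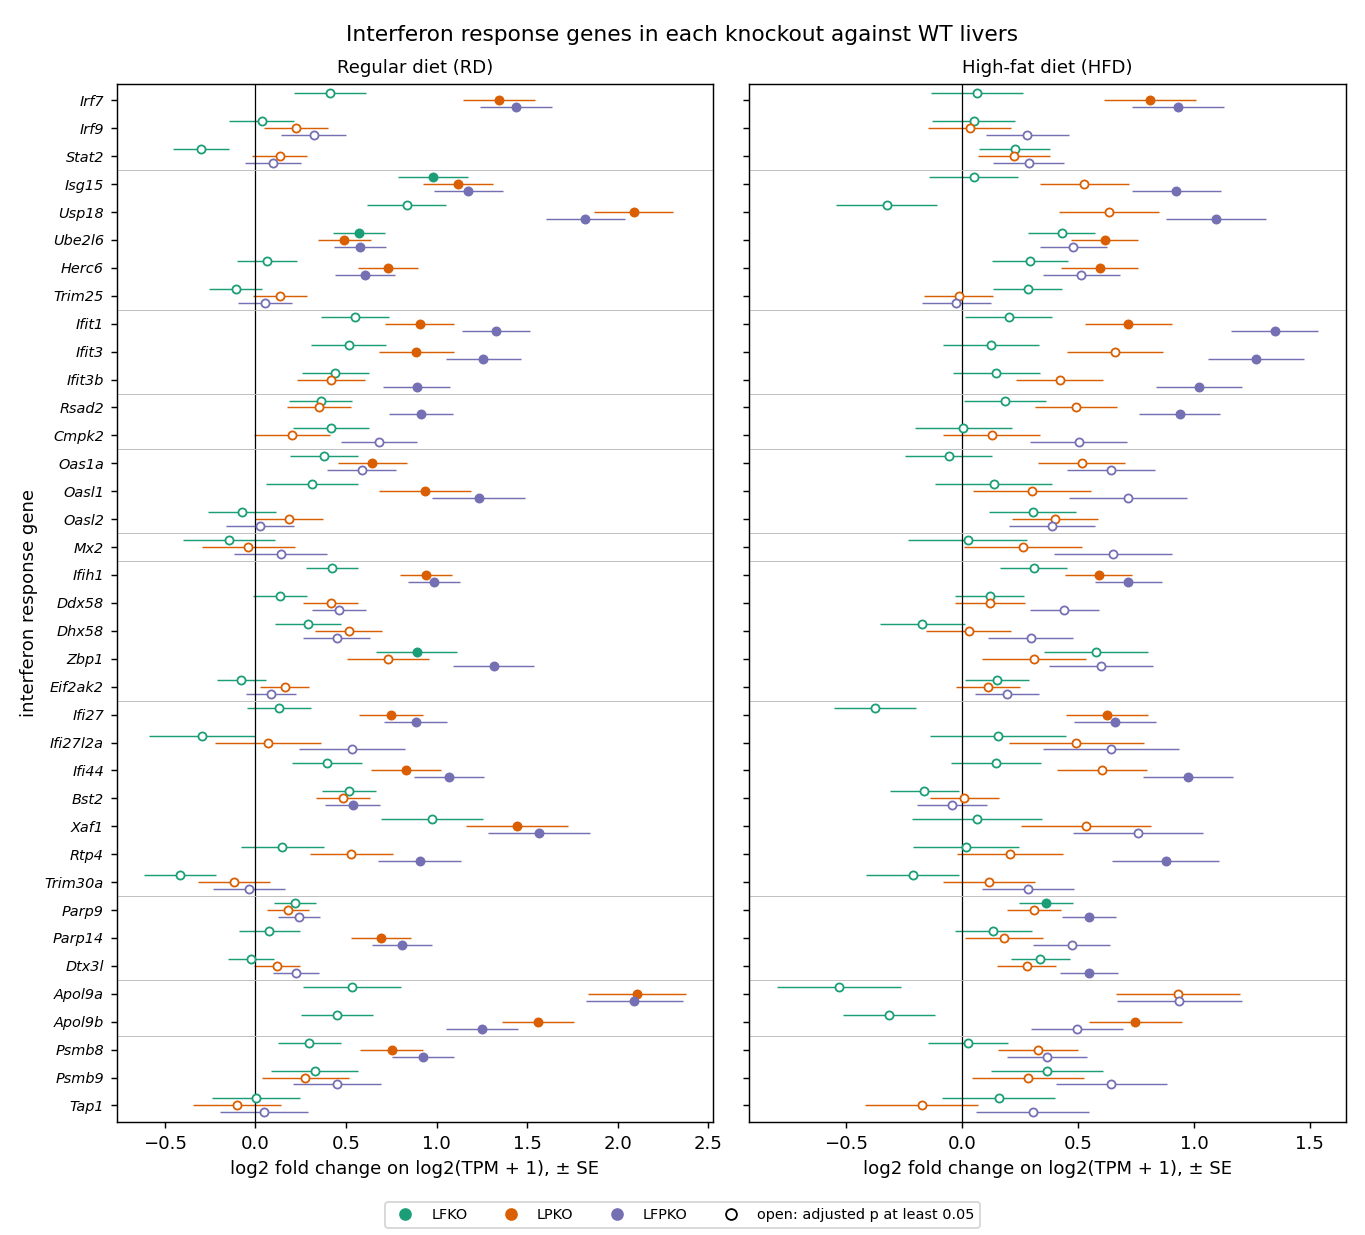
Log2 fold change ± SE of each of the 37 genes in LFKO, LPKO and LFPKO livers against WT livers of the same diet (left RD, right HFD); filled points passed an adjusted p of 0.05. On RD 3, 17 and 21 points are filled for LFKO, LPKO and LFPKO, and on HFD 1, 7 and 13.

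LFPKO livers were also compared with each single knockout. Against LFKO livers, LFPKO livers had 12 of 37 genes higher and 0 lower on the regular diet (1.95% and 3.13% of all genes) and 13 higher and 0 lower on the high-fat diet (1.85% and 8.74%). Usp18 was 0.99 ± 0.22 higher on RD and 1.42 ± 0.22 higher on HFD (limma adjusted p = 0.00826 and 0.000172), and Apol9a 1.56 ± 0.27 and 1.47 ± 0.27. The RD count was 3 without RD LFKO replicate 1, 7 without RD LFKO replicate 2, 6 without RD LFPKO replicate 1 and 4 without RD LFPKO replicate 3. On HFD, 1 gene was called lower without HFD LFKO replicate 1. Scaling changed the split over all genes on HFD from 195 and 922 to 468 and 642, and raised the HFD count of the set to 23. Against LPKO livers, LFPKO livers had 0 of 37 genes higher and 0 lower on RD (0.019% and 0.104% of all genes) and 0 and 0 on HFD (0.0663% and 0.284%). At an unadjusted limma p under 0.05, 5 were higher on RD and 8 on HFD and none was lower, beside 5.2% and 10.5% of all genes in either direction. The median log2FC against LPKO was 0.10 on RD and 0.25 on HFD, beside -0.03 and -0.04 over all genes. The widest of these gaps on HFD included Ifit1, 0.63 ± 0.19 (95% interval 0.24 to 1.02, limma adjusted p = 0.174), and a p that misses the threshold does not show that the genotypes are alike. The split over all genes on HFD was 7 and 30 as deposited and 33 and 71 without Mup and mitochondrial transcripts.

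The single knockouts differed from each other as well. LPKO livers had 8 of 37 genes higher and 0 lower than LFKO livers on RD (3.13% and 3.11% of all genes) and 5 higher and 0 lower on HFD (1.27% and 3.32%). Irf7, Apol9a, Apol9b, Usp18 and Ifi27 were called on both diets. Apol9a was 1.57 ± 0.27 higher on RD and 1.46 ± 0.27 on HFD (limma adjusted p = 0.000674 and 0.00168). The RD count was 4 without RD LFKO replicate 1, RD LFKO replicate 2 or RD LPKO replicate 1. The HFD count was 3 without HFD LFKO replicate 3 or HFD LPKO replicate 3, and without HFD LFKO replicate 1 there was 1 lower. The split over all genes on HFD was 134 and 350 as deposited and 335 and 359 after scaling.

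Across both diets, 3 of the 37 genes had every one of the 12 libraries labelled LPKO or LFPKO above every one of the other 12, where 13 of the 10551 tested genes did. Irf7 stood at 18.7 to 32.5 TPM (median 21.9) against 6.29 to 14.0 TPM (median 11.7). Usp18 stood at 9.61 to 20.5 TPM against 1.99 to 7.84 TPM, and Apol9a at 46.2 to 81.5 TPM against 7.08 to 40.7 TPM.

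**Figure D4:**
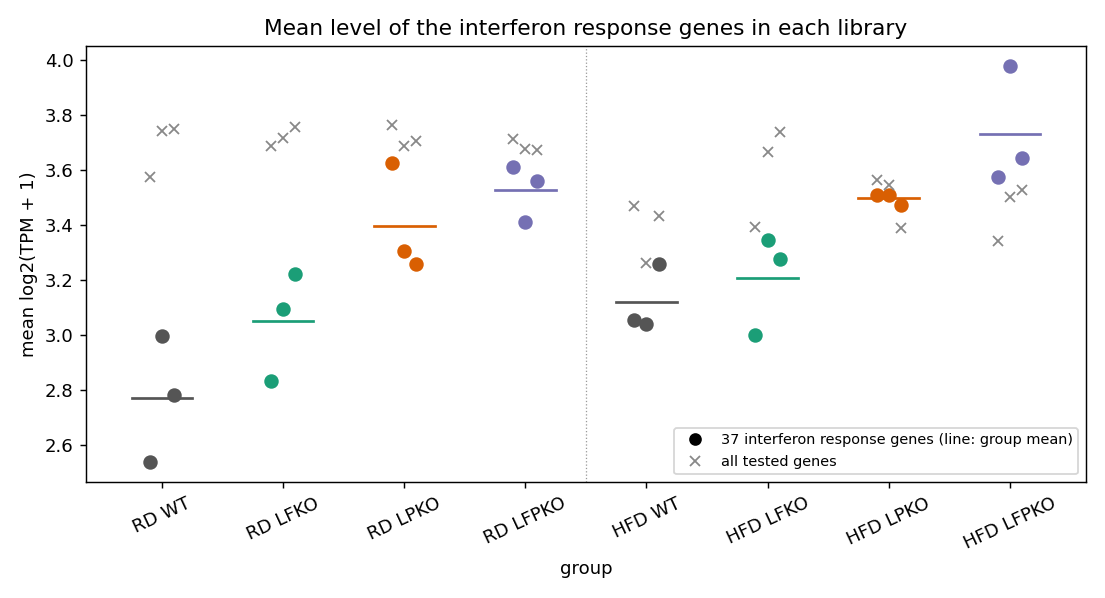
Mean log2(TPM + 1) of the 37 interferon response genes (filled points, line at the group mean) and of all tested genes (grey crosses) in each library. The set's group mean is 2.77 in RD WT, 3.05 in RD LFKO, 3.40 in RD LPKO and 3.53 in RD LFPKO livers, and 3.12, 3.21, 3.50 and 3.73 in the same genotypes on HFD.

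The high-fat diet itself was compared with the regular diet in each genotype. In WT livers 11 of 37 genes were called higher (Isg15, Usp18, Ifit1, Ifit3, Dhx58, Zbp1, Ifi44, Xaf1, Apol9a, Apol9b and Psmb8) and 2 lower (Bst2 and Trim25), where the calls over all genes were 1.05% and 29.8%. LFKO livers had 1 higher and 1 lower (1.11% and 8.34%), LPKO livers 1 higher and 2 lower (0.777% and 17.3%), and LFPKO livers 6 higher and 2 lower (1.35% and 24.9%). The median of the set was 0.32, 0.18, 0.18 and 0.23 in WT, LFKO, LPKO and LFPKO livers, and that of all genes -0.29, -0.11, -0.22 and -0.23. Scaling by median-of-ratios factors moved the all-gene median to 0.02, 0.00, -0.01 and -0.01, and the calls of the set to 22 higher and 0 lower in WT, 5 and 1 in LFKO, 5 and 1 in LPKO and 16 and 1 in LFPKO livers. Over all genes the splits went from 111 and 3139 to 468 and 372, from 117 and 880 to 414 and 674, from 82 and 1828 to 290 and 390, and from 142 and 2631 to 500 and 884 in the same order.

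Apol9a rose with the diet in WT livers, from 7.08, 18.0 and 13.3 TPM to 30.8, 30.7 and 40.7 TPM (1.42 ± 0.27, limma adjusted p = 0.00166). Usp18 rose from 1.99, 3.83 and 2.33 TPM to 5.57, 6.55 and 7.24 TPM (1.03 ± 0.22, limma adjusted p = 0.0031) and Isg15 from 4.07, 5.53 and 4.45 TPM to 7.30, 9.45 and 10.4 TPM (0.82 ± 0.19). No RD WT library reached the lowest HFD WT library for these 3 genes. In LFPKO livers Ifit1 rose from 6.36, 5.27 and 5.28 TPM to 8.75, 14.0 and 9.86 TPM (0.82 ± 0.19, limma adjusted p = 0.00408), with Ifit3, Ifit3b, Isg15, Ifi44 and Parp9. Ifit1 was the gene called higher in LPKO livers (0.61 ± 0.19) and Herc6 the gene called higher in LFKO livers (0.55 ± 0.17).

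Bst2 was called lower on the high-fat diet in all 4 genotypes. It was 1 of 7, 8, 10 and 7 genes of the set with a log2FC below 0 in WT, LFKO, LPKO and LFPKO livers. It read 95.6, 104 and 107 TPM in RD WT livers and 70.6, 73.7 and 81.6 TPM in HFD WT livers (-0.43 ± 0.15, limma adjusted p = 0.0356). In LFKO livers it fell from 121, 151 and 170 TPM to 57.0, 72.0 and 73.4 TPM (-1.11 ± 0.15, limma adjusted p = 0.000196). The log2FC was -0.91 ± 0.15 in LPKO and -1.01 ± 0.15 in LFPKO livers, and no genotype's RD and HFD libraries overlapped. After scaling the value was -0.07 in WT livers and no longer called, and -0.98, -0.66 and -0.76 in LFKO, LPKO and LFPKO livers, all called. Trim25 had log2FC values of -0.42 ± 0.15, -0.57 ± 0.15 and -0.50 ± 0.15 in WT, LPKO and LFPKO livers, and none of these was called after scaling (-0.07, -0.33 and -0.25).

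Leaving out a library moved several of these counts. In WT livers the count of higher genes was 7 without HFD WT replicate 2, and the count of lower genes was 1 without RD WT replicate 1 or HFD WT replicate 3 and 0 without RD WT replicate 2, RD WT replicate 3, HFD WT replicate 1 or HFD WT replicate 2. The 1 higher gene in LFKO livers was lost without any of the 6 libraries (RD LFKO and HFD LFKO replicates 1, 2 and 3). In LPKO livers 2 were higher without RD LPKO replicate 1 and 0 without RD LPKO replicate 2, RD LPKO replicate 3 or HFD LPKO replicates 1, 2 or 3, and 1 was lower without RD LPKO replicate 1, HFD LPKO replicate 2 or HFD LPKO replicate 3. In LFPKO livers the higher count was 1 without RD LFPKO replicate 2 or HFD LFPKO replicate 2 and 3 without RD LFPKO replicate 3 or HFD LFPKO replicate 1, and the lower count was 1 without RD LFPKO replicate 3 or HFD LFPKO replicate 1.

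**Figure D5:**
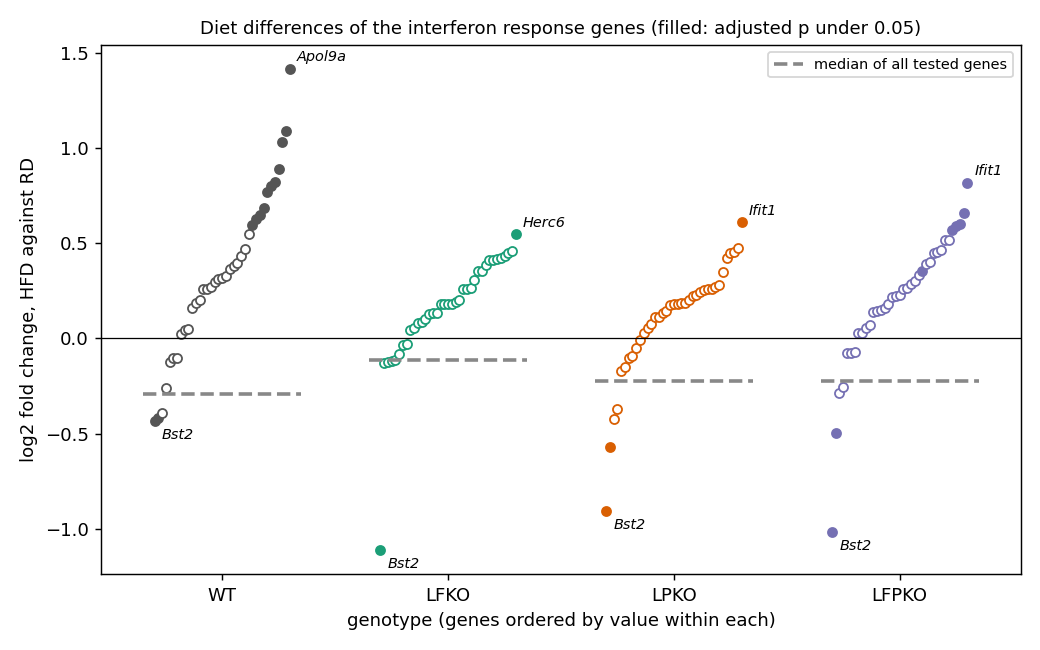
Log2 fold change of each of the 37 genes, HFD against RD, in each genotype, ordered by value; filled points passed an adjusted p of 0.05 and the dashed line is the median of all tested genes. Of 37 points 30, 29, 27 and 30 lie above 0 in WT, LFKO, LPKO and LFPKO livers, and Bst2 is the lowest point in each genotype.

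Whether the genotype differences changed with diet was tested with interaction terms. No gene of the set was called for LFKO, LPKO or LFPKO by diet with limma, where 0.00948%, 0.171% and 0.0284% of all genes were called in either direction. At an unadjusted p under 0.05 there were 7, 7 and 6 of 37 genes of the set, of which 1 in LFKO by diet was positive and all others negative, beside 12.2%, 8.08% and 7.54% of all tested genes in either direction. The smallest adjusted p was that of Usp18 for LPKO by diet, -1.45 ± 0.31 (95% interval -2.09 to -0.81, limma adjusted p = 0.0599), whose log2FC over WT was 2.09 on RD and 0.63 on HFD. It was called after scaling (-1.52, limma adjusted p = 0.0325), and 1 gene was called lower without RD WT replicate 2, RD LPKO replicate 2 or HFD LPKO replicate 3. Apol9a gave -1.17 ± 0.38 for LPKO by diet (limma adjusted p = 0.315). A term for non-additivity, LFPKO minus the summed effects of LFKO and LPKO, was called for 0 of 37 genes on RD (0.256% of all genes) and 0 on HFD (11.2% of all genes). At an unadjusted p under 0.05 there were 6 on RD, all negative, led by Usp18 at -1.10 ± 0.31 (limma adjusted p = 0.25), and 2 on HFD, beside 7.01% and 28.5% of all tested genes. The all-gene splits of positive and negative calls were 12 and 6 for LPKO by diet, 0 and 3 for LFPKO by diet and 70 and 1109 for non-additivity on HFD, and 27 and 23, 5 and 17, and 230 and 396 after scaling. For non-additivity on RD the split was 8 and 19, and 8 and 11 without Mup and mitochondrial transcripts. After scaling Rtp4 was called on HFD (0.94, limma adjusted p = 0.0392), and without HFD LFPKO replicate 3 there was 1 positive call. Negative calls on HFD numbered 2 without HFD LFKO replicate 1, and 1 without HFD LPKO replicate 3 or HFD LFPKO replicate 2.

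The genes also varied together among libraries of the same group. Over the deviations of the 24 libraries from their group means (16 residual degrees of freedom), the mean Pearson correlation of the 666 pairs of the set was 0.46, and 647 pairs were above 0. The mean over all pairs of tested genes was 0.24. Rtp4 (0.90), Apol9a (0.89) and Irf7 (0.88) followed the mean of the other genes of the set most closely and Trim30a (0.24) and Trim25 (0.32) least. These libraries share their TPM total, so this is a description only.

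Upstream of the response, transcripts of the interferons themselves were close to nil. Of 18 type I interferon genes in the table, 15 were listed at 0 in every library and the highest value of the others was 0.0851 TPM (Ifnz). Of 3 type II and III interferon genes, 2 were listed at 0 throughout, and Ifng reached 0.217 TPM. The receptor gene Ifnar1 was lower in RD LFPKO (-0.42 ± 0.13, from 11.7 to 8.45 TPM, limma adjusted p = 0.0468) and HFD LPKO livers (-0.48 ± 0.13, limma adjusted p = 0.0312) than in WT livers of the same diet, and Ifnar2 was not called in any knockout. Jak1 was higher in RD LPKO livers (0.43 ± 0.10, limma adjusted p = 0.0132). Tyk2, Irf1, Irf3 and the adaptor gene Mavs were not called in RD LPKO or RD LFPKO livers. Sting1, the adaptor of DNA sensing, stood between 0.336 and 1.09 TPM and was below the limit for testing.

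A wider list of 137 pathway genes outside the set had 87 tested members. Of these, 10 were called higher and 0 lower in RD LPKO livers and 9 higher and 2 lower in RD LFPKO livers, with medians of 0.10 and 0.12. Over all tested genes 3.52% were called higher and 2.33% lower in RD LPKO and 4% and 3.45% in RD LFPKO livers, so the 2 lower genes were no larger a share than among all genes. In RD LFKO livers 0 of 87 were called (1.07% and 0.597% of all genes). The counts on HFD were 7 higher and 1 lower in LFKO (12.7% and 0.73% of all genes), 3 and 1 in LPKO (3.6% and 1.13%) and 4 and 1 in LFPKO livers (1.62% and 1.47%). The higher counts in HFD LFKO and HFD LPKO livers were no larger a share than among all genes. After median-of-ratios scaling the HFD counts were 1 higher and 3 lower in LFKO livers (2.23% and 1.87% of all genes). They were 4 and 4 in LPKO (3.54% and 3.29%) and 6 and 2 in LFPKO livers (2% and 3.44%). The scaled RD counts were 2 higher and 1 lower in LFKO livers (2.5% and 1.26% of all genes). In RD LPKO they were 13 and 0 (5.66% and 3.78%) and in RD LFPKO livers 17 and 2 (7.29% and 5.62%). Ly6e, an interferon-induced surface protein gene, went from 184 ± 47.2 TPM in RD WT livers to 535 ± 85.7 in RD LPKO and 672 ± 184 TPM in RD LFPKO livers (SD, n = 3; 1.56 ± 0.25 and 1.87 ± 0.25, limma adjusted p = 0.000424 and 5.58e-05). It was also higher in HFD LPKO (0.97 ± 0.25) and HFD LFPKO livers (1.22 ± 0.25). Ifitm3, which blocks viral fusion, went from 396 ± 52.0 TPM in RD WT livers to 754 ± 61.6 in RD LPKO and 763 ± 77.8 TPM in RD LFPKO livers (0.93 ± 0.14 and 0.95 ± 0.14). The chemokine gene Cxcl10 rose by 1.59 ± 0.43 and 1.68 ± 0.43 in these livers, the guanylate-binding protein gene Gbp3 by 0.87 ± 0.21 and 0.96 ± 0.21, and Ptpn2, a phosphatase that restrains JAK signalling, by 0.47 ± 0.13 and 0.71 ± 0.13. In HFD LFKO livers the genes called higher included Igtp (1.30 ± 0.33), Gbp2 (1.03 ± 0.32) and Gbp7 (0.73 ± 0.23), GTPases known mainly from the interferon gamma response. After scaling Igtp was called (1.06 ± 0.29, limma adjusted p = 0.0454), and Gbp2 (0.86 ± 0.29) and Gbp7 (0.52 ± 0.19) were not (limma adjusted p = 0.108 and 0.137).

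The 6 hepatocyte markers (Alb, Ttr, Apoa1, Serpina1a, Hnf4a and Cps1) summed to between 37540 and 90660 TPM in every library, and none was at 0 in a whole group. The sums were 65240 to 66680 TPM in RD WT and 84590 to 90660 TPM in RD LFKO livers. They were 52690 to 58610 TPM in RD LPKO and 54490 to 65680 TPM in RD LFPKO livers. On HFD the group means were 46930, 74550, 51670 and 43640 TPM in WT, LFKO, LPKO and LFPKO livers. The median log2FC of the 6 was 0.02 in RD LPKO and -0.06 in RD LFPKO livers against RD WT. Of the 6, 1 was called higher in RD LPKO livers (3.52% of all genes) and 0 after scaling, and 0 were called in RD LFPKO livers. Against HFD WT, 1 was called higher in HFD LFKO livers (12.7% of all genes). In HFD WT against RD WT livers 3 were called lower (29.8% of all genes), and after scaling 0 were lower and 1 was higher. Markers of the other cells in liver were measured beside these results. Fewer cells of a type and less RNA per cell cannot be told apart in bulk tissue. The summed TPM of 12 Kupffer cell markers was 168 to 271 in RD WT, 129 to 182 in RD LFKO, 95.4 to 132 in RD LPKO and 85.3 to 160 in RD LFPKO livers. All 12 had a log2FC below 0 in RD LPKO and in RD LFPKO against RD WT (medians -0.80 and -0.75). Over all tested genes 41.7% and 48.1% were below 0. In each, 1 of 12 was called lower, against 2.33% and 3.45% of all genes. In RD LFKO livers all 12 were also below 0 (median -0.34, 1 called lower), against 43.8% of all genes below 0 and 0.597% called lower. In HFD LFPKO against HFD WT livers 0 of the 12 were below 0 (median 0.39, none called), with sums of 124 to 196 and 86.0 to 194 TPM. Of all tested genes 35% were below 0 there. In HFD LPKO against HFD WT livers 6 of the 12 were below 0 (median 0.01, none called), against 29.5% of all genes. After scaling 9 of the 12 were below 0 in that comparison (median -0.11). In HFD WT against RD WT livers all 12 were below 0 (median -0.73) and 1 was called lower, where 89.2% of all tested genes were below 0 (median -0.29) and 29.8% were called lower. After scaling all 12 were still below 0 (median -0.42, 1 called lower), where 3.53% of all tested genes were called lower. The shares of all genes below 0 after scaling are not given here. Markers of plasmacytoid dendritic cells, a main source of type I interferon, summed to at most 1.07 TPM in any library with 0 of 6 testable, and 10 T and NK cell markers to at most 5.26 TPM with 0 testable. Of 6 endothelial markers 5 were below 0 in RD LPKO and 4 in RD LFPKO livers against RD WT (1 called lower in LFPKO). All 5 testable stellate cell markers were below 0 in HFD WT against RD WT livers, 4 of them called (29.8% of all genes). After scaling 5 were below 0 and 2 called lower (3.53% of all genes). No Kupffer, endothelial or stellate marker was at 0 in a whole group. The 1 testable monocyte marker lay above WT in RD LPKO (0.37) and RD LFPKO livers (0.54). On HFD it gave 0.34 and 0.40 in the same genotypes. The 2 testable neutrophil markers were below 0 in the same comparisons (medians -0.60, -0.44, -0.39 and -0.33). Of 2 testable cholangiocyte markers 1 was below 0 in each of these RD comparisons and 0 in each HFD comparison. None of these was called. B cell markers summed to at most 2.18 TPM with 0 testable. The part of these cell types in the differences was not tested.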

How the data were processed

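Per the labels' protocols, RNA was taken from liver with Trizol and made into libraries with the TruSeq Stranded mRNA kit. The authors deposited gene-level TPM made with kallisto on GRCm38 (mm10), per the submitters' processing notes; no version or annotation is given in the sources used. A line without a gene name (0.0104% to 0.025% of TPM) was left out, and 13131 of 34945 named genes were at 0 throughout. TPM were used as deposited as log2(TPM + 1), and a gene was kept when its TPM averaged 1 or more. All 24 libraries entered 1 limma 3.58.1 fit (R 4.3.3) with a mean per group, a trend in variance and 16 residual degrees of freedom. The 21 comparisons were adjusted by Benjamini-Hochberg over all tested genes, two-sided. The fit was tried on simulated data for RD LPKO against RD WT only. An exact permutation test of 3 against 3 cannot go below p = 0.1 and was not used. All 42 genes could be named. Values of every library are given for the gene of each role with the smallest adjusted p in RD LPKO or RD LFPKO against RD WT, for Irf7, and for genes going against their role; others with such values were chosen after they were seen. The genes and lists were chosen with earlier results of these data known. Promoters came from RefSeq and transcript words from GENCODE M21, which may differ from the authors' annotation. Tried besides were median-of-ratios scaling, a pseudocount of 0.1, no filter, an average TPM of 5 or more, rescaling without Mup and mitochondrial transcripts, a replicate block, the compared groups alone in the fit, and leaving out each library. Scaled values of the wider pathway list and the cell type markers were added after seeing the data. Figures used matplotlib 3.10.9 in Python 3.11.15.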

Additional observations from a re-analysis of the deposited data

How the results depend on the processing

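Counts are of the 37 tested genes called higher unless stated. With no filter every gene above 0 in any library was tested, all 42 of the set included. Over all 21 comparisons, none of the 126 called values of the set changed sign in the alternatives that gave a value (1607 values checked). For RD LFKO against WT (3 as reported) the count was 1 with no filter on low values, 1 with an average TPM of 5 or more, 5 after median-of-ratios scaling and 1 fitted on the compared groups alone; RD LPKO against RD LFKO gave 5 with no filter. For HFD LFKO against WT (1) it was 0 with no filter, 2 with an average TPM of 5 or more, 0 after scaling, 0 without Mup and mitochondrial transcripts and 0 fitted on those groups alone, and lower calls were 1 after scaling (Ifi27) and 2 without Mup and mitochondrial transcripts (Ifi27 and Bst2). For HFD LPKO against WT (7) it was 3 with no filter, 2 without Mup and mitochondrial transcripts and 3 fitted on those groups alone, and for HFD LFPKO against WT (13) it was 6 fitted on those groups alone. HFD LFPKO against HFD LFKO (13) gave 8 with an average TPM of 5 or more, 23 after scaling, 24 without Mup and mitochondrial transcripts and 5 fitted on those groups alone, and HFD LFPKO against HFD LPKO (0) gave 1 (Ifit3b) without Mup and mitochondrial transcripts. For the diet in WT livers (11 higher, 2 lower) scaling and leaving out Mup and mitochondrial transcripts each gave 22 higher and 0 lower, and no filter gave 0 lower. In LFKO livers (1 higher) the count was 0 with a pseudocount of 0.1, with no filter, with an average TPM of 5 or more and fitted on those groups alone, 5 after scaling and 7 without Mup and mitochondrial transcripts. In LPKO livers (1 higher, 2 lower) it was 0 with no filter and with an average TPM of 5 or more, 5 higher and 1 lower after scaling, and 3 higher and 1 lower without Mup and mitochondrial transcripts. In LFPKO livers (6 higher, 2 lower) it was 3 with an average TPM of 5 or more, 16 higher and 1 lower after scaling or without Mup and mitochondrial transcripts, and 2 higher fitted on those groups alone. LPKO by diet gave 1 lower with a pseudocount of 0.1, after scaling and without Mup and mitochondrial transcripts, and non-additivity on HFD gave 1 higher after scaling and 2 without those transcripts. The cause was not tested, except that a stricter filter leaves 25 genes of the set. Rescaling without Mup and mitochondrial transcripts turned the split of all higher and lower calls from 113 and 63 to 121 and 171 in RD LFKO against WT, from 206 and 330 to 620 and 372 in RD LFPKO against RD LFKO, and from 330 and 328 to 940 and 387 in RD LPKO against RD LFKO. With 1 library left out the counts ranged from 0 to 3 (RD LFKO against WT), 8 to 15 (RD LPKO), 17 to 20 (RD LFPKO), 3 to 9 (RD LFPKO against RD LFKO), 4 to 7 (RD LPKO against RD LFKO), 0 to 5 (HFD LFKO), 0 to 6 (HFD LPKO), 7 to 16 (HFD LFPKO), 10 to 13 with 0 to 1 lower (HFD LFPKO against HFD LFKO) and 3 to 5 with 0 to 1 lower (HFD LPKO against HFD LFKO). For the diet they ranged from 7 to 11 higher and 0 to 1 lower in WT, 0 to 0 higher in LFKO, 0 to 2 higher and 1 to 2 lower in LPKO, and 1 to 6 higher and 1 to 2 lower in LFPKO livers, with 0 to 1 lower for LPKO by diet and 0 to 1 higher and 0 to 2 lower for non-additivity on HFD.

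What libraries of 1 replicate number share is not stated, and in 0 of 16 pairwise comparisons did all same-numbered libraries correlate above 0.1 (range -0.23 to 0.387). HFD LFPKO against HFD LFKO came closest, at 0.319, 0.093 and 0.387 for replicates 1, 2 and 3, and its count with a replicate block was 13. With a replicate block the HFD LFKO count was 0 and that for the diet in LFKO livers 0; no other count moved by over 1.5 times.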
